A study of Mus musculus with 8 samples.

Results

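The expression of 10 genes of metal and glucocorticoid handling was followed in mouse liver. They are the metallothionein genes *Mt1* and *Mt2*, the metal sensor gene *Mtf1*, the exporter genes *Slc30a1* and *Slc30a10*, the importer genes *Slc39a14* and *Slc39a8*, the glucocorticoid receptor gene *Nr3c1* and the receptor's target genes *Tsc22d3* and *Fkbp5*. These 10 of 55416 listed identifiers were named because *Mt1* and *Mt2* were lower in the knockout, so the differences between the genotypes are given for them as a description, with no p-value for any of them. All 10 members were at 1 TPM or more in each of the 8 libraries and so passed the filter that 12710 genes passed. TPM is the abundance of a gene's transcripts per length, scaled to each library's total.

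The 8 libraries came from total liver RNA of mice kept on the HFMCD diet for 9 weeks to produce steatohepatitis. Of these, 4 were floxed controls (FLOX1 to FLOX4, genotype Alb-cre-). The other 4 were hepatocyte *Smpd3* knockouts (HKO1 to HKO4, Alb-cre+), in which the albumin-driven Cre is directed at hepatocytes. Whole-liver RNA does not show the level of *Smpd3* in each cell type. *Smpd3* encodes a neutral sphingomyelinase. There was no group on another diet and no Cre-positive group without floxed alleles, so Cre itself and the missing *Smpd3* cannot be told apart, and the labels do not state that each library is a separate animal. Any p-value below therefore measures the spread between these libraries, which may be technical.

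Metallothioneins are small cysteine-rich proteins that bind zinc, copper and cadmium. In liver their genes are induced by zinc through MTF1, a transcription factor that binds metal response elements in DNA, and also by glucocorticoids, by interleukin-6 during inflammation, by oxidative stress and by fasting. SLC30 proteins move zinc out of the cytosol and SLC39 proteins move it in, and some members of both families carry manganese instead.

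Promoter sequences were taken from RefSeq (GRCm38.p6), where 8 of the 10 members matched with 11 windows. The 250 bases before the annotated start were searched on both strands for the metal response element core, as TGCACNC or TGCGCNC. Of all 32851 windows of this length, 21.4% held at least 1 match, 5.17% at least 2 and 1.26% at least 3. Shown here are *Mt1*, *Mt2* and *Slc30a1*, textbook targets of MTF1 whose levels did not overlap between the genotypes. Capitals mark the matched core, the sequence runs 5′ to 3′ on the plus strand, and the windows are chr8:94178839-94179088 for *Mt1*, chr8:94172368-94172617 for *Mt2* and chr1:191906531-191906780 for *Slc30a1*.
Mt1: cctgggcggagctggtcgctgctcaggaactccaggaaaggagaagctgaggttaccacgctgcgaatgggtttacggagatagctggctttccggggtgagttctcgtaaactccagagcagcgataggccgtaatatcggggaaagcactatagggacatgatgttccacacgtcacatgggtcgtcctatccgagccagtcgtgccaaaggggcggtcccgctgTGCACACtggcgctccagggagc
Mt2: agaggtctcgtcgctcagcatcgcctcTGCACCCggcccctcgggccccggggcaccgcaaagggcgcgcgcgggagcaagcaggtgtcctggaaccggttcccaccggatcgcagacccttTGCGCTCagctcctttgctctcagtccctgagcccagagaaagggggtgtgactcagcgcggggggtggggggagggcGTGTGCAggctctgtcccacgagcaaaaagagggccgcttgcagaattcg
Slc30a1: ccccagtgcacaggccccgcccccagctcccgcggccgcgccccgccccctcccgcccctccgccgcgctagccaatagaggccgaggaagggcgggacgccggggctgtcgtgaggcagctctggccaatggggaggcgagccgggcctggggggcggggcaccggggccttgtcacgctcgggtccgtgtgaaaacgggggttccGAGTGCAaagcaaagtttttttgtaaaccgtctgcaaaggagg

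*Mt2* held 3 matches, beginning 223, 128 and 50 bases before the start, the last of them on the minus strand. *Mt1* held 1 beginning 23 bases before its start, and *Slc30a1* held 1 on the minus strand beginning 43 bases before its start. *Slc30a10* also held 3, of which a pair on opposite strands overlapped, and 1 of the 2 windows of *Slc39a8* held 1. The windows of *Mtf1* and *Fkbp5* and the 3 windows of *Tsc22d3* held none. An antioxidant response element core (TGACNNNGC), present in 10.2% of all windows, was found in *Mt2*, *Slc30a1* and 1 window of *Slc39a8*. The E-box CACGTG, present in 6.02%, was found in *Fkbp5* and in the other window of *Slc39a8*. No window of a member held the palindromic glucocorticoid response element (AGAACA, then 3 bases of any kind, then TGTTCT), which 3 of all windows (0.00913%) held. The antioxidant and metal response cores did not overlap each other in *Mt2* or *Slc30a1*. These matches describe the letters in the windows alone. The bases after each annotated start and those farther upstream were not searched. A count is therefore not that of a whole promoter, and the low count of *Mt1* holds for this window only.

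*Mt1* and *Mt2* were the most abundant members and the members that differed most. *Mt1* (ENSMUSG00000031765) stood at 609, 1149, 1134 and 891 TPM in controls 1 to 4 and at 465, 413, 277 and 199 TPM in knockouts 1 to 4. Every knockout lay below every control, with control 1 and knockout 1 the closest pair. The mean of *Mt1* was 946 ± 254 TPM in controls against 338 ± 122 TPM in knockouts (SD, n = 4 each), which is 35.8% of the control level, a difference of -1.51 ± 0.27 (SE) on the log2(TPM + 1) scale. All differences below are knockout minus control on that scale, where the added 1 shrinks the differences of genes at low TPM. In whole liver, fewer cells expressing a gene and less RNA of it per cell cannot be told apart.

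*Mt2* (ENSMUSG00000031762) stood at 336, 714, 747 and 444 TPM in controls 1 to 4 and at 250, 216, 167 and 125 TPM in knockouts 1 to 4. The groups again did not overlap, and control 1 was again the control nearest to the knockouts. The mean of *Mt2* was 560 ± 202 TPM in controls against 190 ± 54.7 TPM in knockouts (SD, n = 4 each), which is 33.9% of the control level, a difference of -1.53 ± 0.27 (SE). In the controls *Mt1* ranked 135 and *Mt2* 244 by level among the 12710 genes. Of the 244 genes at least as abundant as *Mt2* in the controls, *Mt2* and *Mt1* had the lowest differences, and among all 12710 they ranked 19 and 21 from the lowest. Both genes were picked for this fall, and the cut is the level of *Mt2* itself, so these ranks are only a description. Leaving out 1 library at a time kept *Mt1* between -1.71 and -1.28 and *Mt2* between -1.75 and -1.35.

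**Figure D1:**
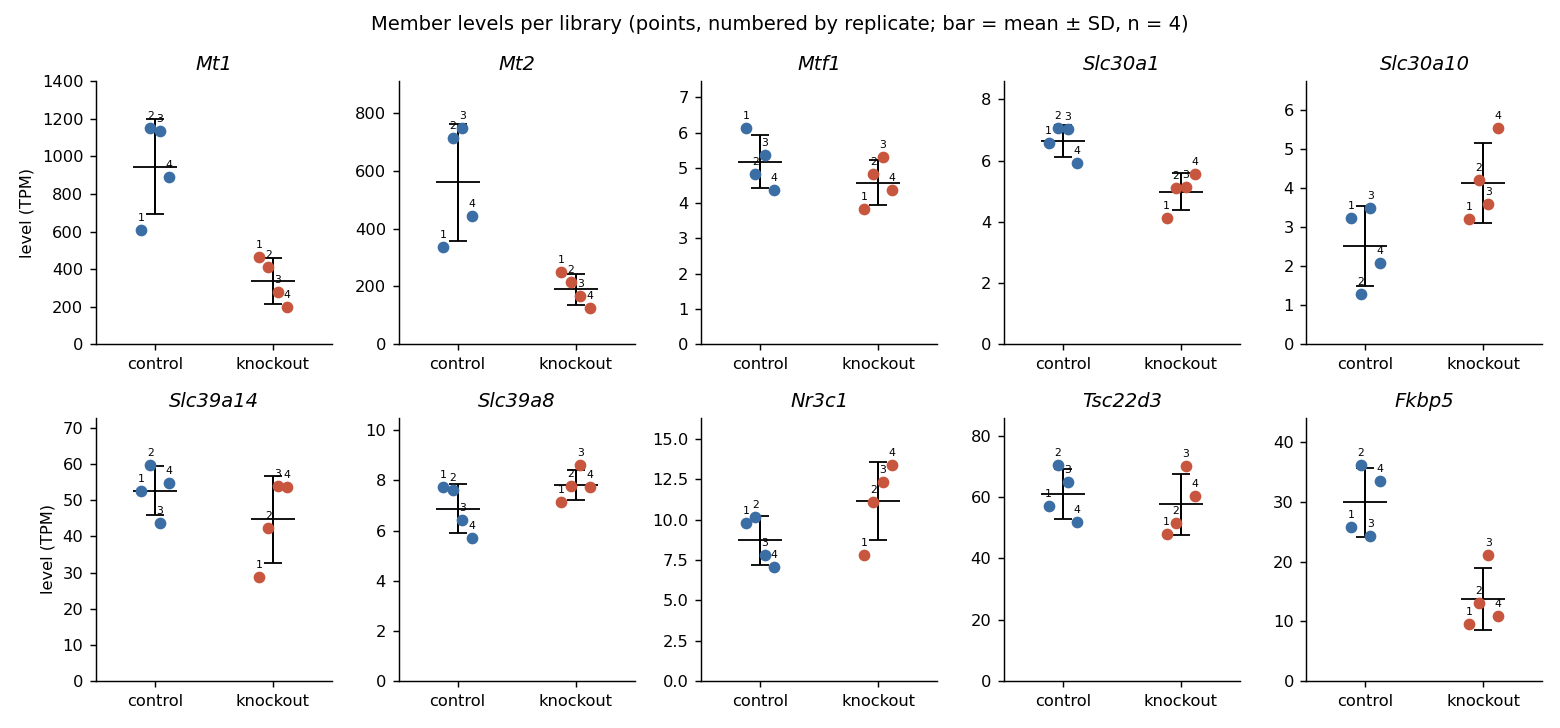
Level of each member in TPM (y axis, from 0) in the 4 control and 4 knockout libraries (points, numbered by replicate, with the mean ± SD as a bar). *Mt1*, *Mt2*, *Slc30a1* and *Fkbp5* have knockout points that all lie below the control points, and the other 6 overlap.

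The ratio of the pair overlapped between the genotypes. *Mt1* exceeded *Mt2* in each library, by a ratio of 1.74 ± 0.22 in the controls (range 1.52 to 2.01) and 1.75 ± 0.16 in the knockouts (range 1.59 to 1.92; SD, n = 4 per group). Summed, the pair ranged from 944 to 1880 TPM in the controls and from 324 to 715 TPM in the knockouts, or from 0.0949% to 0.189% and from 0.0326% to 0.0719% of all TPM. The genes are paralogs, but the 549-base *Mt1* and 511-base *Mt2* reference transcripts (GENCODE M21) share no 25-base stretch, and their longest shared stretch is 20 bases. The brain-enriched *Mt3*, the third metallothionein, stayed between 0 and 1.65 TPM and *Mt4*, known from squamous epithelium, between 0 and 0.28 TPM, and neither passed the filter.

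**Figure D2:**
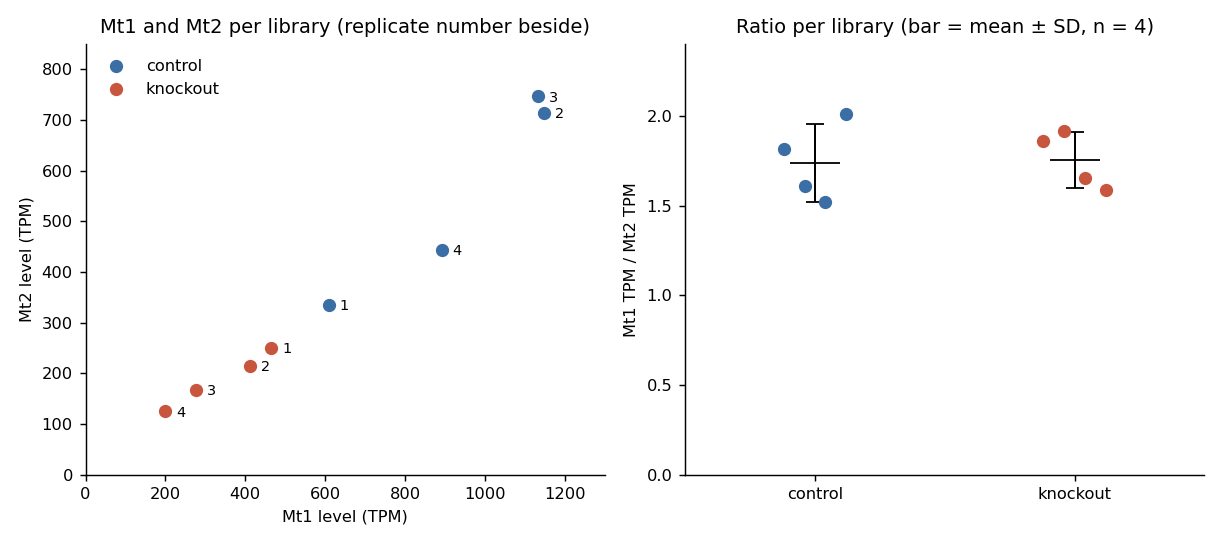
Left, *Mt1* level against *Mt2* level in TPM for each library, numbered by replicate; right, the ratio of *Mt1* to *Mt2* TPM per library with its mean ± SD. The libraries lie along 1 line from knockout 4 to controls 2 and 3, and the ratio spans 1.52 to 2.01 in the controls and 1.59 to 1.92 in the knockouts.

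*Mtf1*, the metal sensor, overlapped between the genotypes. Its level (ENSMUSG00000028890) was 6.12, 4.84, 5.38 and 4.38 TPM in controls 1 to 4 and 3.83, 4.84, 5.30 and 4.37 TPM in knockouts 1 to 4. It had means of 5.18 ± 0.75 and 4.58 ± 0.63 TPM (SD, n = 4 per group) and a difference of -0.15 ± 0.14 (SE). The difference was -0.07 without control 1, -0.08 without knockout 1 and -0.21 without control 4.

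The zinc exporter gene *Slc30a1* was lower in every knockout. SLC30A1 sits in the plasma membrane and removes zinc from the cell. *Slc30a1* (ENSMUSG00000037434) stood at 6.58, 7.05, 7.03 and 5.93 TPM in controls 1 to 4 and at 4.14, 5.12, 5.15 and 5.55 TPM in knockouts 1 to 4. The lowest control, number 4, was close above the highest knockout, also number 4. Its mean was 6.65 ± 0.53 TPM against 4.99 ± 0.60 TPM (SD, n = 4 each), which is 75.1% of the control level, with a difference of -0.36 ± 0.13 (SE). With a pseudocount of 5 in place of 1 the difference was -0.22.

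*Slc30a10*, whose product exports manganese, pointed the other way. It (ENSMUSG00000026614) was at 3.23, 1.28, 3.50 and 2.08 TPM in controls 1 to 4 and at 3.20, 4.21, 3.60 and 5.53 TPM in knockouts 1 to 4. Knockout 1 lay below controls 1 and 3, so the groups overlapped. The means were 2.52 ± 1.03 and 4.13 ± 1.02 TPM (SD, n = 4 per group), the difference was 0.57 ± 0.23 (SE), and it was 0.38 without control 2. With a pseudocount of 5 it was 0.28 and with one of 0.1 it was 0.76, this being the member of lowest TPM.

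Both importers overlapped between the genotypes. SLC39A14 brings zinc, manganese and iron into hepatocytes, and its gene (ENSMUSG00000022094) stood at 52.6, 59.7, 43.7 and 54.7 TPM in controls 1 to 4 and at 28.7, 42.4, 53.9 and 53.8 TPM in knockouts 1 to 4. The difference of *Slc39a14*, -0.27 ± 0.19 (SE), was -0.07 without knockout 1 and -0.12 with library weights. *Slc39a8*, which encodes a related zinc and manganese importer (ENSMUSG00000053897), was at 7.72, 7.63, 6.43 and 5.70 TPM in controls 1 to 4 and at 7.15, 7.78, 8.61 and 7.74 TPM in knockouts 1 to 4. Its difference was 0.17 ± 0.13 (SE), and it was 0.10 without control 4, the lowest library.

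The glucocorticoid receptor gene *Nr3c1* had a positive difference, while its targets *Fkbp5* and *Tsc22d3* both had negative ones. Of these genes only *Fkbp5* had groups that did not overlap. *Fkbp5* encodes a co-chaperone that is induced by the receptor and restrains it. *Fkbp5* (ENSMUSG00000024222) stood at 25.8, 36.2, 24.4 and 33.5 TPM in controls 1 to 4 and at 9.49, 13.1, 21.2 and 10.9 TPM in knockouts 1 to 4. No knockout reached a control, and knockout 3 came closest. Its mean was 29.96 ± 5.78 TPM against 13.7 ± 5.22 TPM (SD, n = 4 each), which is 45.7% of the control level, a difference of -1.12 ± 0.22 (SE).

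*Tsc22d3*, which encodes the glucocorticoid-induced leucine zipper, overlapped. It (ENSMUSG00000031431) was at 57.1, 70.5, 64.9 and 51.8 TPM in controls 1 to 4 and at 48.1, 51.7, 70.3 and 60.5 TPM in knockouts 1 to 4. Its difference was -0.09 ± 0.14 (SE), and between -0.19 without knockout 3 and -0.01 without knockout 1. *Nr3c1*, the receptor gene (ENSMUSG00000024431), was at 9.82, 10.2, 7.81 and 7.05 TPM in controls 1 to 4 and at 7.83, 11.1, 12.3 and 13.4 TPM in knockouts 1 to 4. Knockouts 2 to 4 were above every control and knockout 1 was not. The difference was 0.31 ± 0.18 (SE), and 0.46 without knockout 1.

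By control mean in TPM, which is a level per transcript length, the members ran from *Mt1* and *Mt2* through *Tsc22d3* (61.1), *Slc39a14* (52.7) and *Fkbp5* (29.96) to *Nr3c1* (8.72), *Slc39a8* (6.87), *Slc30a1* (6.65), *Mtf1* (5.18) and *Slc30a10* (2.52). Neighbours whose control libraries overlapped were *Mt1* with *Mt2*, *Tsc22d3* with *Slc39a14*, and each next pair from *Nr3c1* to *Mtf1*. *Fkbp5* was apart from both of its neighbours, and *Slc30a10* lay below every control value of *Mtf1*. The knockout means gave the same order for all 10 members, ending with *Slc39a8* (7.82), *Slc30a1* (4.99), *Mtf1* (4.58) and *Slc30a10* (4.13). In the knockouts, however, the libraries of *Fkbp5* overlapped those of *Nr3c1*, and those of *Slc30a10* overlapped those of *Mtf1*.

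In limma, with p-values adjusted over all 12710 genes, 0 of the 10 members passed an adjusted p of 0.05, where 0.102% of all genes (13) did, 0.0551% lower and 0.0472% higher. The mean was lower in the knockout for 7 members, against 35.4% of all genes. At an unadjusted p under 0.05, 4 members were lower and 1 was higher, against 2.45% of all genes lower and 5.57% higher. Groups did not overlap for 4 members, all lower in the knockout, against 1.46% of all genes lower and 3.29% higher. The members were chosen on this comparison, so these counts are no test of them and nothing is read from them. Their median difference was -0.21, beside 0.05 over all tested genes. The 13 calls were 0 without control 1 or knockout 3, 2 without knockout 2, 3 without control 4 and 5 without knockout 1, and no member was among the calls in any of these fits.

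None of the other zinc transporters passed the test. Of 8 further SLC30 genes, 5 passed the filter and 0 passed the test in limma, and of 12 further SLC39 genes, 9 passed the filter and 0 passed the test. The counts at an unadjusted p under 0.05 were 0 of 5 and 1 of 9. The median differences were 0.04 and -0.01, close to the 0.05 of all genes. The 1 gene was *Slc39a4*, known as the zinc importer of the intestine. It was at 77.3, 78.8, 64.5 and 60.1 TPM in controls 1 to 4 and at 76.3, 91.8, 86.3 and 93.4 TPM in knockouts 1 to 4 (difference 0.31 ± 0.11 SE, adjusted p = 0.470 in limma). Knockout 1 alone lay within the range of the controls. *Slc39a7*, which releases zinc from the endoplasmic reticulum, had a difference of 0.44 ± 0.24 (SE, adjusted p = 0.707 in limma), its mean being 65.2 ± 16.2 TPM against 90.1 ± 25.4 TPM (SD, n = 4 each).

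The remaining SLC30 genes, *Slc30a4*, *Slc30a5*, *Slc30a6*, *Slc30a7* and *Slc30a9*, serve vesicles, the secretory pathway or mitochondria and differed by -0.02 to 0.20. *Slc30a5*, a supplier of zinc to the early secretory pathway, had the 0.20. Of the SLC39 genes, *Slc39a1*, *Slc39a3*, *Slc39a6*, *Slc39a9*, *Slc39a10*, *Slc39a11* and *Slc39a13* differed by -0.22 to 0.14. Over all 10 SLC30 genes the summed level was 57.9 to 61.9 TPM in the controls and 53.9 to 67.5 TPM in the knockouts. Over all 14 SLC39 genes it was 257 to 346 TPM and 257 to 384 TPM, so both sums overlapped.

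**Figure D3:**
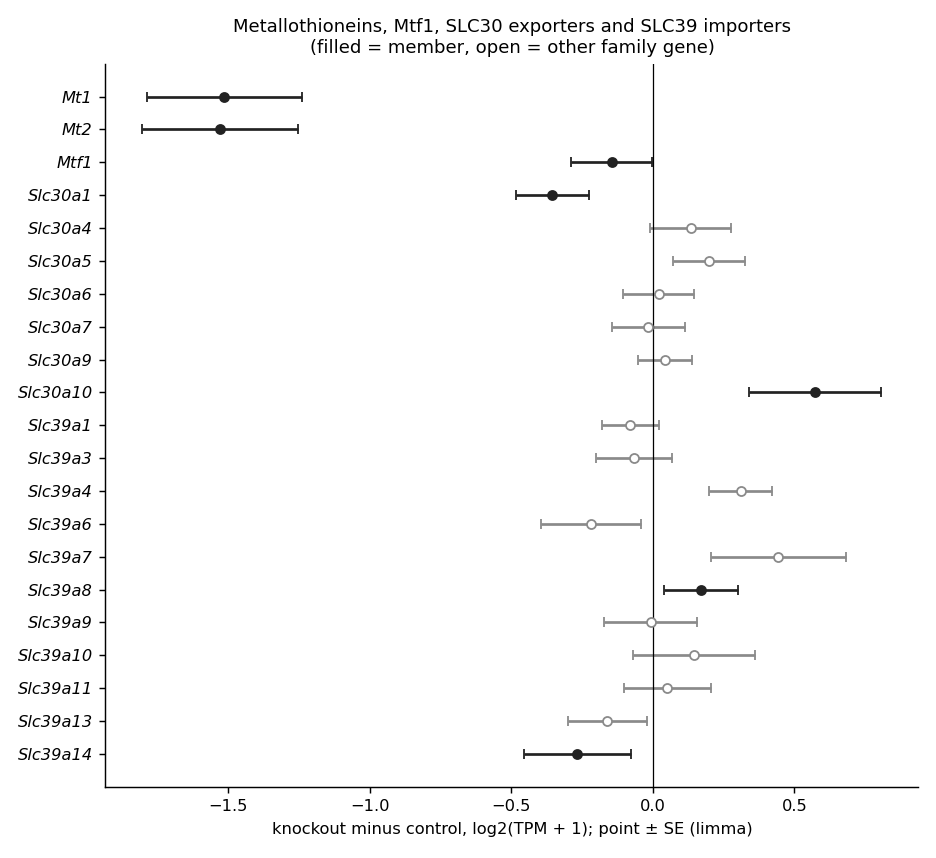
Difference between knockout and control on the log2(TPM + 1) scale (x axis; point ± SE from limma) for the metallothioneins, *Mtf1* and the SLC30 and SLC39 genes that passed the filter, with members filled and other family genes open. *Mt1* and *Mt2* lie near -1.5, while the transporters lie between -0.36 (*Slc30a1*) and 0.57 (*Slc30a10*).

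Other genes attributed to MTF1 gave no call. Of 8 such genes beside *Slc30a1*, 7 passed the filter and 0 passed in limma. Counted without adjustment at p under 0.05, 2 were higher and 0 lower, and the median difference was 0.03. The first was *Gclc*, the catalytic subunit of glutamate-cysteine ligase, which also answers to NRF2. *Gclc* was at 111, 115, 92.5 and 83.8 TPM in controls 1 to 4 and at 139, 171, 138 and 158 TPM in knockouts 1 to 4 (difference 0.59 ± 0.12 SE, adjusted p = 0.134 in limma), with every knockout above every control. The second was *Ndrg1*, a stress-responsive gene (0.64 ± 0.20 SE, adjusted p = 0.343 in limma), whose groups did not overlap either. *Csrp1* had a difference of -0.20 ± 0.24 (SE).

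Copper and manganese genes gave no call either. Of 12 copper genes, 11 passed the filter, 0 passed in limma and 0 had an unadjusted p under 0.05. Their differences had a median of 0.06. Of 5 manganese genes that are not members, 0 passed in limma and 1 had an unadjusted p under 0.05. That gene was *Arg1*, the manganese-dependent arginase of the urea cycle, with a mean of 744 ± 48.6 TPM against 563 ± 67.9 TPM (SD, n = 4 each; difference -0.41 ± 0.10 SE, adjusted p = 0.204 in limma) and groups that did not overlap.

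Inducers of metallothioneins other than metals were then compared through lists of their target genes. Some genes stand in more than 1 list, so the counts of the lists are not independent. For example, *Lpin1*, *Igfbp1* and *Tat* are in both the glucocorticoid-induced and the fasting-induced list. Of 20 further glucocorticoid-induced genes, 0 passed in limma. Before adjustment, 5 were lower and 3 higher at p under 0.05, beside 2.45% of all genes lower and 5.57% higher, and the median difference was -0.02. The same 2 percentages are the background for the unadjusted counts of every list. The lowest p belonged to *Mfsd2a*, which encodes a transporter of lysophospholipids. It stood at 57.1, 76.5, 46.3 and 69.6 TPM in controls 1 to 4 and at 23.8, 31.2, 38.9 and 20.5 TPM in knockouts 1 to 4 (difference -1.11 ± 0.21 SE, adjusted p = 0.104 in limma). No knockout reached a control, and knockout 3 came closest, as it did for *Fkbp5*.

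*Zbtb16*, a transcription factor gene used as a marker of receptor activity, stood at 10.2, 13.6, 9.69 and 8.40 TPM in controls 1 to 4 and at 4.19, 5.43, 8.65 and 5.10 TPM in knockouts 1 to 4 (difference -0.77 ± 0.21 SE, adjusted p = 0.251 in limma). Knockout 3 exceeded control 4, so these groups overlapped. *Lpin1*, a phosphatidate phosphatase gene, had a difference of -1.29 ± 0.36 (SE, adjusted p = 0.284 in limma). Named after their values were seen, *Tat* (tyrosine aminotransferase) and *Sgk1* (a serum- and glucocorticoid-regulated kinase) had differences of -0.02 ± 0.26 and 0.04 ± 0.28 (SE). *Igfbp1*, a gene that insulin represses, was also named after its values were seen and had the highest difference of the list, 2.34 ± 0.67 (SE, adjusted p = 0.293 in limma). *Igfbp1* was at 41.8, 595, 57.8 and 61.3 TPM in controls 1 to 4 and at 462, 528, 541 and 463 TPM in knockouts 1 to 4. Control 2 alone of the controls was as high as the knockouts.

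**Figure D4:**
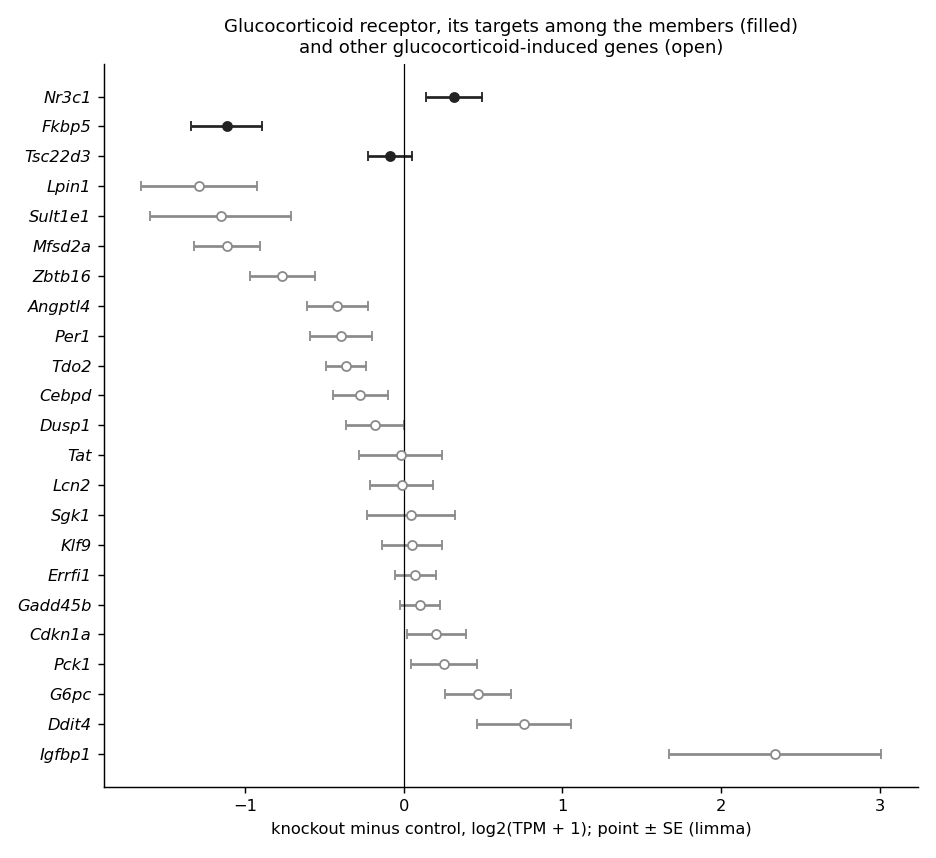
Difference between knockout and control on the log2(TPM + 1) scale (x axis; point ± SE from limma) for *Nr3c1*, *Fkbp5* and *Tsc22d3* (filled) and 20 other glucocorticoid-induced genes (open, ordered by difference). The open points run from -1.29 (*Lpin1*) to 2.34 (*Igfbp1*), with 11 below and 9 above 0.

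Of 14 genes of receptor chaperoning, co-regulation and steroid metabolism, 0 passed in limma, and 3 were higher and 0 lower at an unadjusted p under 0.05. These were the steroid reductase genes *Akr1d1* (0.40 ± 0.13 SE, adjusted p = 0.348 in limma) and *Srd5a1* (0.35) and the co-chaperone gene *Fkbp4* (0.36). *Akr1d1* and *Srd5a1* encode enzymes that inactivate glucocorticoids in liver.

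Of 24 genes of interleukin-6 signalling and the acute phase, 0 passed in limma. The median difference was 0.00, and 4 were higher and 3 lower at an unadjusted p under 0.05. The interleukin-6 receptor gene *Il6ra* was at 14.97, 17.93, 11.96 and 10.56 TPM in controls 1 to 4 and at 4.13, 6.88, 10.24 and 10.03 TPM in knockouts 1 to 4 (difference -0.79 ± 0.25 SE, adjusted p = 0.377 in limma). The serum amyloid gene *Saa3* pointed up (0.31 ± 0.09 SE) and the transcription factor gene *Cebpb* down (-0.63 ± 0.23 SE).

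Of 19 NRF2 target genes, 18 passed the filter and 1 passed in limma with a higher value in HKO. Without adjustment, 6 were above and 0 below the controls at p under 0.05, beside 5.57% of all genes above and 2.45% below (median difference 0.16). The 1 was *Osgin1*, an oxidative stress response gene (1.03 ± 0.13 SE, adjusted p = 0.0300 in limma). It was at 192, 163, 163 and 190 TPM in controls 1 to 4 and at 300, 377, 329 and 465 TPM in knockouts 1 to 4. Beside *Osgin1*, the NRF2 targets under the unadjusted p were *Gclc*, *Gstm3*, *Gsta4*, *Cbr1* and *Gstm1*. Other targets overlapped between the genotypes, among them *Nqo1* (-0.01), *Gclm* (0.03), *Srxn1* (-0.11) and *Hmox1* (-0.30), named after their values were seen. At any p, 13 of the 18 were higher and 5 lower. Of 13 fasting-induced genes, 0 passed in limma, and 4 were higher and 2 lower at an unadjusted p under 0.05 (median difference -0.02). At any p, 6 were higher and 7 lower. Their summed level, in which abundant genes weigh most, was 3735, 5586, 3426 and 3675 TPM in controls 1 to 4. In the knockouts it was 4020 to 4840 TPM, so these sums overlapped through control 2 alone. *Fgf21*, a hormone gene of the fasting liver, had a difference of 1.02, and *Cpt1a*, the carnitine palmitoyltransferase of fatty acid oxidation, -0.48 (adjusted p = 0.204 and 0.212 in limma).

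Clock genes were examined last among these lists. Of 19, 18 passed the filter and 1 (*Arntl*, the core clock activator also called *Bmal1*) passed in limma. Without adjustment, 6 were higher and 7 lower at p under 0.05, beside 5.57% and 2.45% of all genes. *Arntl* was at 4.12, 5.27, 6.52 and 3.18 TPM in controls 1 to 4 and at 11.9, 12.5, 13.1 and 19.6 TPM in knockouts 1 to 4 (difference 1.41 ± 0.21 SE, adjusted p = 0.0490 in limma). *Ciart*, a clock repressor gene, was at 2.91, 2.64, 1.37 and 4.90 TPM in controls 1 to 4 and at 0.37 to 0.56 TPM in the knockouts (difference -1.40 ± 0.24 SE, adjusted p = 0.0865 in limma). *Npas2*, a partner of *Arntl*, had a difference of 1.19 ± 0.21 (SE, adjusted p = 0.0930 in limma). *Dbp*, a clock output gene named after its values were seen, was at 18.6, 35.4, 5.43 and 31.4 TPM in controls 1 to 4 and at 2.67, 3.06, 3.27 and 1.68 TPM in knockouts 1 to 4 (difference -2.44 ± 0.46 SE, adjusted p = 0.108 in limma). The groups did not overlap for any of these 4 genes. Glucocorticoid levels follow the time of day, and the labels give no time of collection. The part of the clock genes in the metallothionein and *Fkbp5* values was not tested.

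Which genes followed *Mt1* from library to library was asked in a fit that held genotype fixed, so that the difference used to choose the members did not enter. The slope is the change in a gene's log2(TPM + 1) for a change of 1 in that of *Mt1* among libraries of the same genotype. In limma, 0 of 12709 genes passed an adjusted p of 0.05 (background 0%), and at an unadjusted p under 0.05 the slope was positive for 204 (1.61%) and negative for 442 (3.48%). The median slope was -0.08. The smallest adjusted p was 0.123.

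*Mt2* had the steepest tie among the members, with a slope of 0.95 ± 0.12 (SE, adjusted p = 0.123 in limma). That slope is a single value for both genotypes, and no separate slopes were fitted. Deviations from the control mean ran from -0.59 to 0.32 for *Mt1* and from -0.66 to 0.49 for *Mt2*. Among the knockouts they ran from -0.69 to 0.53 and from -0.54 to 0.45. Leaving out 1 library at a time kept the slope between 0.88 and 1.07, and without the 2 libraries farthest from the median of *Mt1* it was 1.02 (adjusted p = 0.499 in limma). With library weights it passed (1.03, adjusted p = 0.0194 in limma). Over these and the other alternatives the adjusted p ran from 0.0194 to 0.534. Control 1 and knockout 4 were the lowest of their groups for both genes.

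The other 8 members had slopes from -0.42 to -0.06, and none passed. *Slc39a14* had the lowest, -0.42 ± 0.18 (SE), with an unadjusted p of 0.0487 and an adjusted p of 0.920 in limma. *Fkbp5*, whose groups were apart in the same direction as *Mt1*, had a slope of -0.06 ± 0.27 (SE, adjusted p = 0.981 in limma). Its highest knockout was number 3 while that of *Mt1* was number 1, and its highest control was number 2 for both. *Slc30a1* had a slope of -0.10 ± 0.15 (SE, adjusted p = 0.943 in limma), *Nr3c1* -0.34 ± 0.19, *Slc30a10* -0.40 ± 0.25, *Mtf1* -0.14 ± 0.17, *Tsc22d3* -0.10 ± 0.16 and *Slc39a8* -0.09 ± 0.16.

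Beside *Mt2*, the 3 genes of smallest p in this fit had negative slopes, *Cyp4a14*, *Ces1d* and *Paqr9*. *Cyp4a14*, a fatty acid omega-hydroxylase gene induced through PPAR alpha, was at 183, 92.2, 73.4 and 123 TPM in controls 1 to 4 and at 100, 104, 158 and 202 TPM in knockouts 1 to 4. Its high libraries, control 1 and knockout 4, were the low libraries of *Mt1* (slope -1.01 ± 0.12 SE, adjusted p = 0.123 in limma). *Ces1d*, a carboxylesterase gene, had a slope of -0.89 ± 0.12 (SE, adjusted p = 0.123 in limma) and *Paqr9*, which encodes a membrane receptor-like protein, one of -0.81 ± 0.11 (SE). The endoplasmic reticulum chaperone genes *Pdia4* and *Hsp90b1* had slopes of -0.64 ± 0.10 and -0.54 ± 0.09 (SE). Positive slopes of smallest p were those of *Synpr*, *Mir142hg*, *Epb41l4aos* and *Adarb2*. *Synpr* was listed at 0 in knockout 4 and *Mir142hg* at 0 in 3 libraries, and the values of *Mir142hg* and *Epb41l4aos* are uncertain because the sources used here do not give the strand setting of the counting.

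Of the lists, the 14 genes of the receptor machinery had 5 slopes that were negative at an unadjusted p under 0.05 and 0 that were positive, beside 3.48% and 1.61% of all genes, and none passed after adjustment. Named after their values were seen, the 5 were the chaperone and co-chaperone genes *Fkbp4* (-0.46 ± 0.11 SE), *Hsp90aa1* (-0.50 ± 0.13) and *Stip1* (-0.41 ± 0.13), the coactivator gene *Ncoa1* (-0.45 ± 0.19) and *Akr1d1* (-0.30 ± 0.12). *Fkbp4* was at 104, 70.3, 91.0 and 82.5 TPM in controls 1 to 4 and at 94.2, 96.1, 119 and 141 TPM in knockouts 1 to 4. Control 1 and knockout 4, low in *Mt1*, were the highest of their groups. Of the 20 glucocorticoid-induced genes, 1 had a positive and 0 a negative slope at that p, and of the 24 acute phase genes, 2 and 0. Of the 14 hepatocyte markers the counts were 1 and 2. The receptor machinery was 1 of 18 lists, and negative slopes were not particular to it. The endoplasmic reticulum chaperone genes *Pdia4* (-0.64) and *Hsp90b1* (-0.54) lie outside that list.

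**Figure D5:**
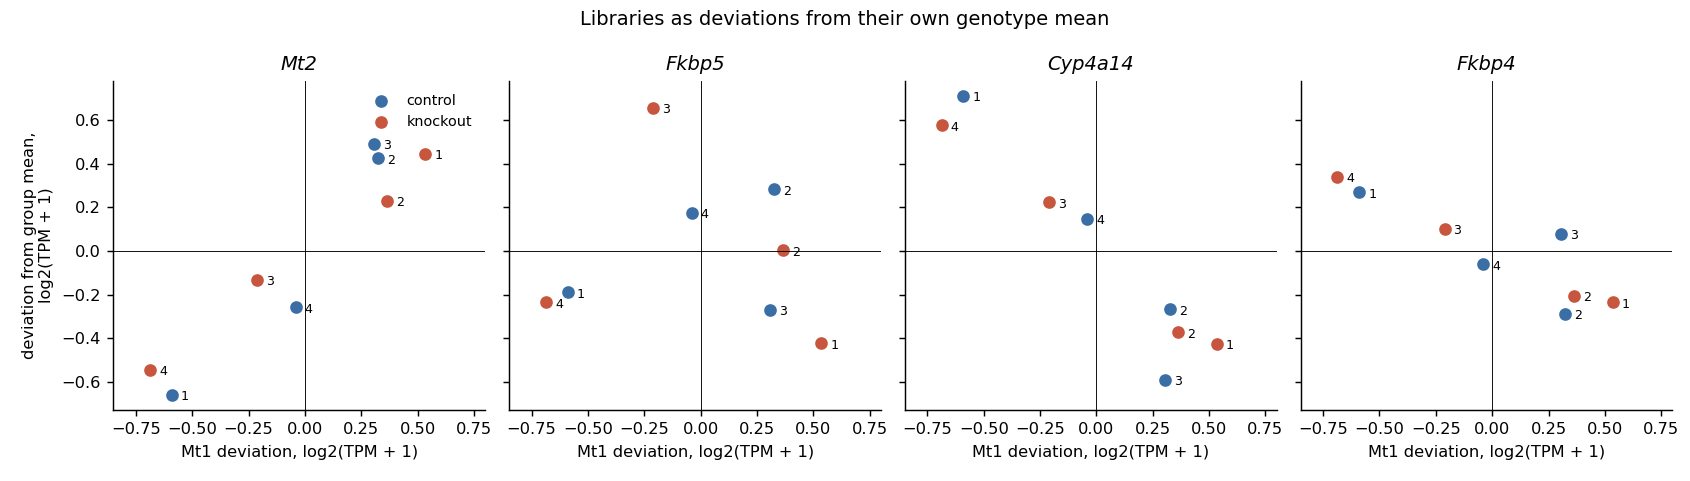
Each library's deviation from its own genotype mean on the log2(TPM + 1) scale, for *Mt1* (x axis) against *Mt2*, *Fkbp5*, *Cyp4a14* and *Fkbp4* (y axes), numbered by replicate. *Mt2* climbs with *Mt1* (slope 0.95), *Cyp4a14* and *Fkbp4* descend (-1.01 and -0.46), and *Fkbp5* has a slope of -0.06.

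As for the libraries, *Smpd3* was at 6.38 to 12.5 TPM in the controls and 1.17 to 3.03 TPM in the knockouts, which is 19.6% of the control level. Control 4 stood apart, with 12115 genes reaching 1 TPM against 12474 to 12890 elsewhere, and with the highest mitochondrial share (8.92%) and share of the 20 most abundant genes (33.8%) of the 8 libraries. It also had the highest hepatocyte marker sum of all libraries and the lowest control sum for each of the 5 other cell types given below. Without control 4, *Mt1* differed by -1.53, *Mt2* by -1.61, *Slc30a1* by -0.40 and *Fkbp5* by -1.06. Hepatocyte markers were present, as the liver label calls for, and their 14 genes summed to 99850 to 115453 TPM in the controls and 91425 to 102616 TPM in the knockouts, with 12 of 14 lower (35.4% of all genes were lower). Of those 14, 0 passed in limma and 3 were lower at an unadjusted p under 0.05. Summed levels in controls and knockouts were 1558 to 2883 and 2160 to 2956 TPM for 14 Kupffer cell and macrophage markers, and 83.7 to 187 and 112 to 143 TPM for 12 endothelial markers. They were 324 to 695 and 547 to 772 TPM for 12 stellate cell markers, 259 to 482 and 192 to 654 TPM for 8 cholangiocyte markers, and 16.6 to 44.1 and 26.2 to 43.2 TPM for 13 lymphocyte markers. All of these sums overlapped between the genotypes, but for the endothelial markers through control 4 alone. Controls 1 to 3 held 182, 187 and 167 TPM of them, each above every knockout, and 10 of the 12 endothelial genes were lower (median difference -0.30). Across these 5 lists, 0 of their genes passed in limma, 3 had an unadjusted p under 0.05, and no marker was listed at 0 in all libraries. The 3 were the Kupffer cell gene *Marco* (-0.84 ± 0.13 SE, adjusted p = 0.0609 in limma), the endothelial *Lyve1* (-0.81 ± 0.27) and the lymphocyte *Cd3g* (0.70 ± 0.28). *Marco* had a mean of 17.9 TPM in controls and 9.62 TPM in knockouts, and its groups did not overlap. Of the 13 tested genes of its list, 9 were higher and 4 lower. The part of other cell types in the members' values was not tested.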

How the data were processed

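Liver RNA libraries (4 floxed controls, 4 knockouts) were grouped and numbered by their titles. The authors deposited 1 table of TPM values for 55416 mouse gene identifiers. RSEM 1.3.3 and GRCh38.p13, a human build, are listed per the submitters' processing notes, although the identifiers are mouse. The sources used here give neither the aligner nor the annotation nor the strand setting. TPM keeps no depth, so count tests and counting intervals were left out. Symbols matched 52083 identifiers.

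Values were analysed as log2(TPM + 1) for genes reaching 1 TPM in 4 or more libraries, in limma 3.58.1 under R 4.3.3 (lmFit, eBayes with trend), with Benjamini-Hochberg adjustment over all genes tested. The first fit had genotype, the second genotype and the *Mt1* level. On simulated libraries of 12710 genes, the comparison of knockout with control recovered 87% of genes changed 2-fold and 99% of genes changed 4-fold. The slope fit recovered 77% of slopes of 1 and 99% of slopes of 2. In these simulations the first fit also called 13 unchanged genes and the slope fit 10. With no gene changed each made 0 calls. The changed genes were drawn only from genes of higher TPM, and the noise was independent between genes. Recovery at low TPM, where several members lie, was not measured.

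The members, the 18 gene lists and the tests were chosen with earlier results of these data known. Counts for a list leave out members. Genes named were the members, *Smpd3*, the SLC30 and SLC39 genes past the filter, up to 3 genes of smallest p from each other list described, and up to 5 per direction in the slope fit. Genes with clone or predicted names are not named. Alternatives were other pseudocounts (0.1 and 5), filters, scalings, library weights, robust eBayes, a replicate block, *Mt2* as covariate and leaving out libraries.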

Additional observations from a re-analysis of the deposited data

How the results depend on the processing

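The differences of all 10 members kept their sign in every setting tried. The absence of overlap between the groups fixes this for *Mt1*, *Mt2*, *Slc30a1* and *Fkbp5* when libraries are left out. The filters and the replicate block left the differences as they were by construction, so those settings could not show a change of sign. *Mt1* ran from -1.71 to -1.28 and *Mt2* from -1.75 to -1.35, and no member was called in any setting. *Mtf1* and *Slc30a10* had no value under the stricter filter of a mean of 5 TPM. The number of genes called between the genotypes, 13, was 8 with a pseudocount of 0.1, 6 with a pseudocount of 5, 0 without a filter (1539 at an unadjusted p under 0.05), 20 after rescaling without mitochondrial and the 20 most abundant genes, 20 with library weights, 0 in limma with the replicate number as a block (743 at an unadjusted p under 0.05), and 0 to 16 with 1 library left out (780 at an unadjusted p under 0.05 without knockout 3). The slope on *Mt1* called 6 genes with library weights (*Mt2*, *Cyp4a14*, *Ces1d*, *Paqr9*, *Synpr* and *Csad*), 1 with *Mt2* as the covariate (*Cyp4a14*), and 0 to 2 with 1 library left out, where *Snurf* and a gene with a clone name passed without knockout 4. These genes outside the naming rule were chosen after their values were seen, and the causes were not tested. Libraries of the same number did not deviate together (correlations across genes of -0.15, 0.03, -0.15 and -0.20 for numbers 1 to 4, and 0 of 4 libraries closest to its own number), so the numbers were not taken as pairs, and the calls lost under the block are not read as a weaker effect. The slope of *Mt2* under the replicate block was 0.89, and the block left the members' differences as they were. Median-of-ratios scaling moved the median of all genes from 0.05 to 0.00, and leaving out control 4 moved it to -0.01. The shares of all genes given above as background are those of the main fit, so they depend on scaling and on control 4. Depth is unknown, and 4 libraries per group limit the precision.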
